A study of Mus musculus with 6 samples.

Results

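The natural killer lectin receptor complex was read on these arrays through 363 probes on mouse chromosome 6, of the mm9 build, in a window of 1.7 Mb chosen by position alone. Of these probes, 362 fell into 47 regions, out of 21987 regions on the whole array, and 1 probe stood outside any region. A region was a run of at least 3 probes whose starts lay at most 1000 bp apart. The first probe of the complex began at position 128611117 and the last ended at 130288915. The regions covered 79.1 kb of the window, with a median width of 1588 bp and 3 to 15 probes each. The median gap between neighbouring regions was 33174 bp and the widest was 112040 bp, so most of the complex lay between measured regions. Regions are numbered 1 to 47 below in their order along the chromosome.

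Natural killer cells are lymphocytes that read the surface of other cells through paired inhibitory and activating receptors. In rodents many of these receptors are C-type lectin-like proteins encoded side by side in this complex. The Ly49 receptors (Klra genes) bind class I major histocompatibility molecules. The NKG2 receptors (Klrc genes with the partner Klrd1, and Klrk1 without it) bind non-classical or stress-induced relatives of those molecules. The NKR-P1 receptors (Klrb1 genes) bind Clec2 proteins, whose genes are interleaved with theirs, and the same stretch holds lectin receptors of myeloid and endothelial cells such as Clec7a, which recognises fungal glucans. The Ly49 genes differ in number and kind between mouse strains.

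The study measured DNA methylation in livers of 32 week old offspring whose mothers (dams) received either a chromium-restricted or a control diet, with 3 arrays per group. The design text places the diets with the dams, and nothing in the labels gives strain, sex, litter or the offspring's own diet, so the p-values reflect the spread among these 6 samples, which may be technical. The tissue label is liver, whereas the extraction label names fat, and the tissue could not be checked against marker genes because no table used here pairs probes with genes. Each array carried DNA pulled down with an antibody against methylated cytosine (Cy5 dye) beside the input DNA it came from (Cy3 dye). Levels below are log2 ratios of immunoprecipitated over input signal, set to 0 at the median probe of each array and averaged over the probes of a region. A level below 0 therefore means less immunoprecipitated DNA per input than at the median probe of that array, not an absolute methylation percentage. In bulk liver DNA the few natural killer cells and the many hepatocytes contribute to one ratio and cannot be told apart.

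The cytosines that the antibody can capture lie mainly in CG pairs, so the CG content of the genes gives context for the levels. RefSeq (GRCm38.p6) lists 93 genes between A2ml1 and Magohb, of which 48 are protein coding and 22 are pseudogenes. The first of the protein-coding genes is Klrb1a. The lists of lectin receptor genes hold 39 of the protein-coding genes. They are 5 NKR-P1 genes, 8 Clec2 genes counted with Cd69, 7 myeloid and endothelial lectins, 8 genes of the NKG2 list and 11 Ly49 genes. The NKG2 list holds Klrc1, Klrc2, Klrc3 and Klrk1, with Klrd1, Klre1, Klri1 and Klri2 counted beside them. These GRCm38.p6 positions were not converted to mm9 and are not comparable with the array positions, so no region below is tied to a gene. The genes were taken by these bounding genes and not by the array window, so some may lie outside it. The promoter window of Klra2 starts at 131247313, far past that of Klra1, the nearest other Ly49 gene, at 130386825. RefSeq promoter windows, 250 bases before to 50 bases after the gene start, were found for 34 of the 39 genes. They held a median of 3 CG pairs, between 0 and 7, against a median of 7 over all 27025 promoters. More than 7 CG pairs occurred in 0 of the 34 promoters and in 49.0% of all promoters, while at least 1 CG pair occurred in 94.1% and 94.2%. The search was for the letters CG, which read the same on both strands.

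By family, the median count was 2 for the Ly49 promoters (0 to 3) and 2 for the NKR-P1 promoters (1 to 7). It was 2.5 for the promoters of the NKG2 list (1 to 4), which include those of Klre1 and Klri1. Both the Clec2 promoters (0 to 7) and the myeloid lectins (1 to 7) had a median of 4. The median G and C content of the 34 promoters was 40.0%, against 52.7% over all promoters. A promoter from each of 4 genes follows, in lower case with every CG pair in capitals, to let the richest and the poorest be seen side by side. Klrb1b, an inhibitory NKR-P1 receptor whose ligand is Clec2d, has 7 CG pairs (chr6:128826266-128826565, minus strand), the highest count of the set, shared with Clec2m and Olr1. Klrk1, the gene of the activating receptor NKG2D, has 4 (chr6:129623815-129624114, minus strand). Clec2h, a Clec2 family member, has 0 (chr6:128662135-128662434, plus strand), as has Klra4, the activating receptor Ly49D (chr6:130067222-130067521, minus strand).
Klrb1b: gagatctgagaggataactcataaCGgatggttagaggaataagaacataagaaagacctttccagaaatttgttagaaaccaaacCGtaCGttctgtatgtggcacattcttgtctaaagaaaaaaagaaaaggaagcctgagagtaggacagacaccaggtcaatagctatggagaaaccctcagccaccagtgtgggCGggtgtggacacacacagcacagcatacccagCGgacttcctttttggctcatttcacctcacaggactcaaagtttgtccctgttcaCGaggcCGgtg
Klrk1: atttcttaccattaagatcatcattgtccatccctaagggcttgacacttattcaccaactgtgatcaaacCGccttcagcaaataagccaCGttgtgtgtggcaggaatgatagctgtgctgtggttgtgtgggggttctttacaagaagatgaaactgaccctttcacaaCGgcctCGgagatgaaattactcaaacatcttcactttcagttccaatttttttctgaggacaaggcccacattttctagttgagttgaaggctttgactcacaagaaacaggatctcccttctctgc
Clec2h: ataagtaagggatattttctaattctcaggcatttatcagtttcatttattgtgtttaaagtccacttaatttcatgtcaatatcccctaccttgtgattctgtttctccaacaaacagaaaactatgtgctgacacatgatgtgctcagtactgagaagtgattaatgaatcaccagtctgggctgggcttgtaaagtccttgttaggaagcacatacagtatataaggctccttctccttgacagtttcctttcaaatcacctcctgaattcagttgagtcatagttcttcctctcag
Klra4: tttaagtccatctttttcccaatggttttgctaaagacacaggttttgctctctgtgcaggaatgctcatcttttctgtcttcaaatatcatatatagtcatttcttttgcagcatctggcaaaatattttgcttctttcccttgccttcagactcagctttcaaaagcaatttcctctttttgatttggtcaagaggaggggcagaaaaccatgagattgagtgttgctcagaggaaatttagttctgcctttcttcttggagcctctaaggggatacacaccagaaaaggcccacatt

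Regions of the complex sat low on the array. Their median level, as the mean of 6 arrays, was -0.43 and the middle 50% of regions lay between -0.81 and 0.083, against a median of -0.11 over all other regions. Levels below -0.5 were found in 22 of 47 regions (46.8%), against 21.9% of the other regions, and levels below -1 in 8 (17.0%), against 6.30%. The very lowest levels on the array were elsewhere, since 0 regions of the complex and 345 other regions lay below -2. High levels were about as common as elsewhere: 3 regions (6.38%) were above 0.5, against 8.23% of the others. The complex was thus shifted downwards while keeping a few regions with high ratios.

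The mean level of the complex was lower on each array and against each stretch compared, least so against the stretch after it. The mean level of the complex minus that of all other regions was -0.23 ± 0.073 (SD over 6 arrays), between -0.32 and -0.14, and below 0 on 6 of 6 arrays. Against the 1.7 Mb before the complex (21 regions, median -0.035) the gap was -0.37 ± 0.077. Against the 1.7 Mb after it (12 regions, median -0.31) the gap was smaller, at -0.11 ± 0.054, and against the rest of chromosome 6 (1159 regions) it was -0.25 ± 0.062. All 3 gaps were below 0 on 6 of 6 arrays. All arrays read the same probes, so agreement between them and the SD over arrays do not measure the spread among regions. That spread was an SD of 0.60 in the complex and 0.40 in the stretch after it, wider than the gap between them. In that stretch 66.7% of regions were below 0, against 68.1% in the complex. These values describe levels and carry no test. In the authors' deposited table of normalized values, taken as log2, the gap from all other regions was -0.40.

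**Figure D1:**
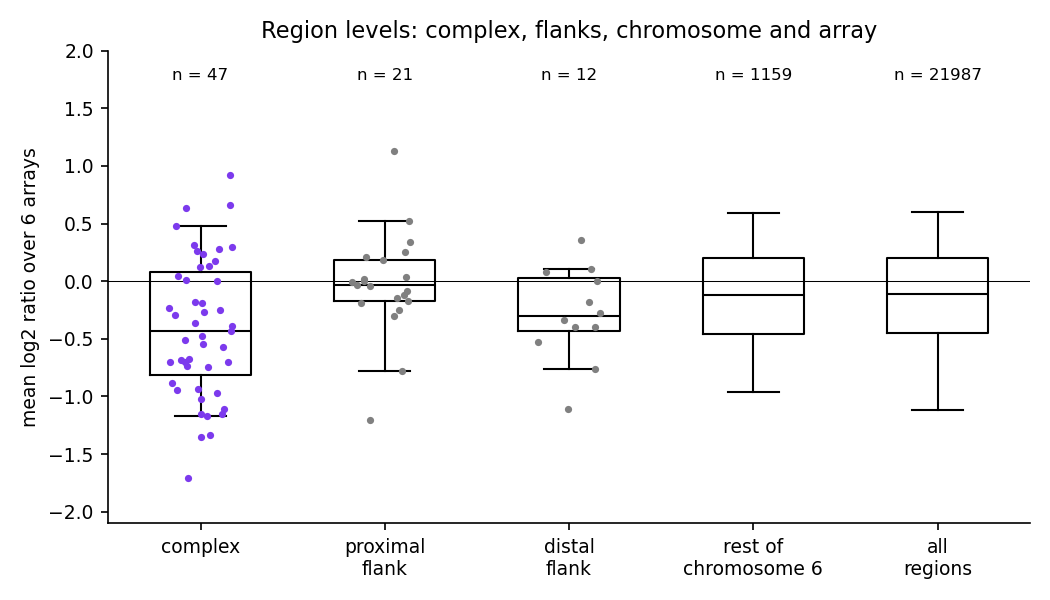
Mean log2 ratio over 6 arrays (vertical axis) for the regions of the complex, the 1.7 Mb flanks on either side, the rest of chromosome 6 and all regions. Boxes give the median and quartiles, whiskers the 5% and 95% points, and points the single regions of the 3 smaller sets; the complex has the lowest median, at -0.43.

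The levels of the 47 regions were similar from array to array, as they were over the whole array. Between pairs of arrays the Pearson correlation over the 47 regions was 0.929 to 0.975, against 0.909 to 0.985 over all regions. It is a description across regions of shared sequence and probes. Levels were below 0 on all 6 arrays in 30 regions, above 0 on all 6 in 9 regions, and mixed in 8. These counts were not made over the whole array. By the mean of 6 arrays, 32 of 47 regions (68.1%) were below 0, against 59.1% of all regions. The SD of a region over the 6 arrays had a median of 0.143, against 0.113 over all regions, whereas the SD of levels among the 47 regions was 0.60. Differences between places in the complex were therefore several times larger than differences between arrays.

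The low regions were not spread evenly. Regions 35 to 47, the last 13, formed an unbroken run below 0 from 129690003 to 130288915, which is 0.599 Mb. Their levels ranged from -1.35 to -0.48, with a mean of -0.91 and an SD of 0.29 among regions. By array, the run averaged -0.93, -1.08 and -0.75 in chromium-restricted arrays 1, 2 and 3, and -1.08, -0.78 and -0.85 in control arrays 1, 2 and 3. Every region of the run was below the array median on every array, with single values between -1.63 and -0.19. The 34 regions before it alternated between both sides, with a mean of -0.21 and an SD of 0.57. Of these, 19 were below 0, where 59.1% of all regions on the array were. Over the whole array there were 5077 runs of neighbouring regions below 0, with a median length of 2 regions, and 44 of them were at least 13 regions long. The run was picked for its length, so its level is a description.

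**Figure D2:**
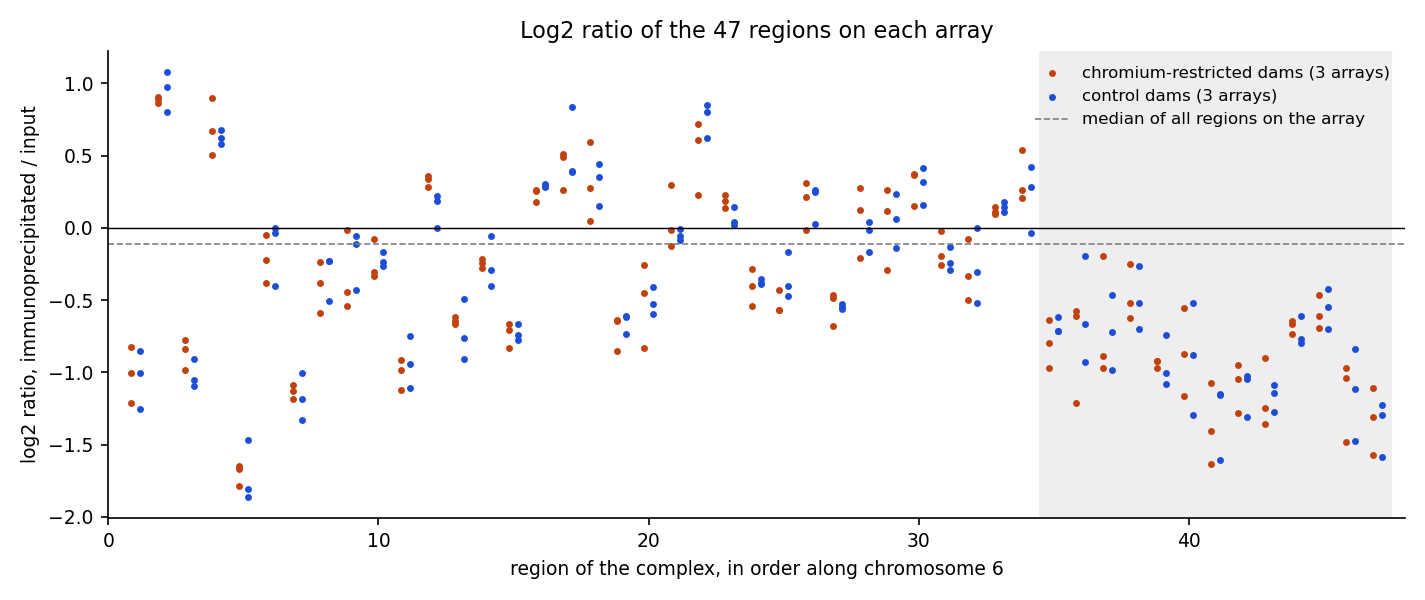
Log2 ratio of each of the 47 regions (horizontal axis, in order along the chromosome) on each array, with chromium-restricted arrays in orange and control arrays in blue. The shaded last 13 regions all lie below 0, between -1.63 and -0.19, while the regions before them alternate between both sides of 0; the dashed line marks the median of all regions, -0.11.

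Divided into 4 equal blocks of 425 kb, the complex had mean levels of -0.42 over 12 regions, -0.12 over 12, -0.22 over 14 and -1.02 over 9. The first block was the most mixed, with an SD of 0.78 among its regions and both the highest and the lowest region of the complex. The last block had 9 of 9 regions below 0, where 59.1% of all regions were. A second long low run, regions 5 to 11 (7 regions, 128836669 to 128964601), lay in the first block.

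Much of the complex gave faint signal. A probe is called bright here where the scanner software put both its channels well above background on each of the 6 arrays. Of the 363 probes, 173 (47.7%) were bright, against 67.5% of all probes. In the long run the count was 36 of 107, and in the rest of the complex 137 of 256. The immunoprecipitated channel was well above background on none of the arrays for 134 probes of the complex (36.9%), 63 of them in the long run, against 20.9% of all probes. Ratios of such probes give at most a bound, and give none where the input was not well above background either. Among bright probes the median level was 0.071 in the complex, -0.27 in the run and 0.22 over the array. For the remaining probes the medians were -0.77, -1.23 and -0.71. The split itself favours this order, since a probe with little immunoprecipitated DNA is less likely to count as bright.

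The distance between the run and the rest of the complex depended on the probes used. It was -0.71 with all probes and -0.14 when regions were rebuilt from bright probes alone, which left 6 regions of the run, 4 of them below 0. It was -0.32 after normexp background correction of the spot signals. How much of the low level came from faint signal was not tested.

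The input channel itself was dim. The median input of a region in the complex was -1.04 on a log2 scale set to 0 at the array median, against 0.18 over all regions, and 39 of 47 regions were below 0. The run was at -1.40 and the regions before it at -0.73. The stretch before the complex was bright, at 0.58, and the stretch after it was dim, at -1.35. Among regions with similar input, between -1.34 and -0.31, the 23 regions of the complex had a median level of -0.43, against -0.11 for 4845 others. The part of the dim input in the low levels was not tested.

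**Figure D3:**
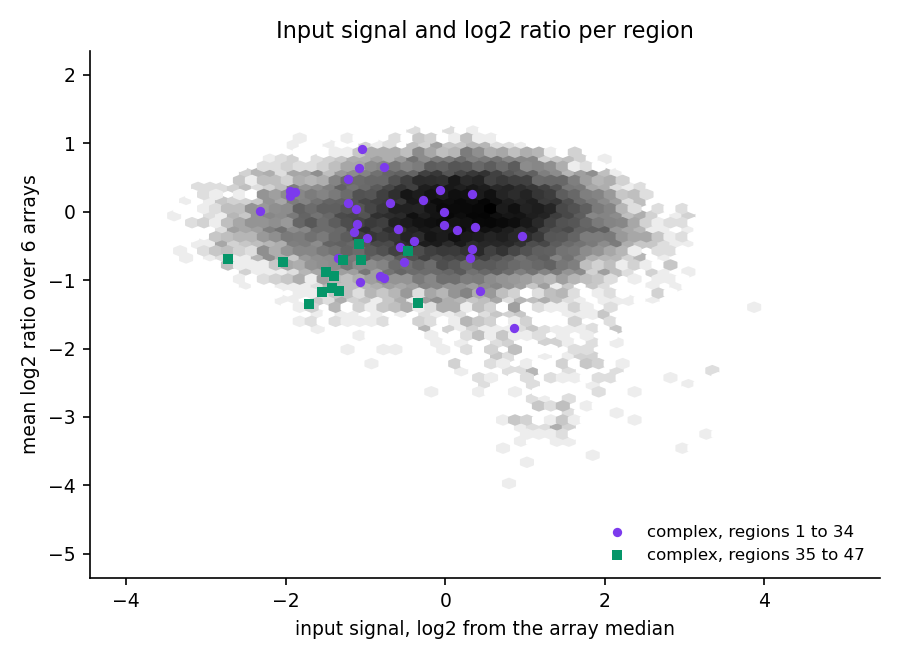
Input signal of each region (horizontal axis, log2 from the array median) against its mean log2 ratio over 6 arrays (vertical axis), with regions 1 to 34 of the complex as purple points, regions 35 to 47 as green squares and all other regions as grey hexagons shaded by number on a log scale. Most regions of the complex lie left of 0, with a median input of -1.04, and the green squares lie below 0 on the vertical axis; region 5, the lowest, stands alone at an input of 0.87.

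Region 2 had the highest level (128672565 to 128674344, 9 probes). Its values were 0.87, 0.91 and 0.89 in the chromium-restricted arrays and 0.80, 1.08 and 0.97 in the controls. The mean of 0.92 put it above 99.4% of all regions, and it was the highest region of the complex on 5 of 6 arrays. Its input, at -1.04, and its immunoprecipitated signal, at -0.28, were both below the array median, and 6 of its 9 probes were bright. It holds the highest probe of the complex, starting at 128673184, a bright probe with a mean of 2.56. The very next probe, at 128673386, had a mean of -0.75, with an immunoprecipitated signal well above background on 0 arrays.

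Region 4 (128775834 to 128777488) followed, with 0.67, 0.50 and 0.90 against 0.58, 0.62 and 0.68, and a mean of 0.66. Region 22 (129357590 to 129359177) averaged 0.64, with 0.23, 0.72 and 0.61 in the chromium-restricted arrays and 0.62, 0.80 and 0.85 in the controls. It was the only one of the 4 highest regions in which every probe, 8 of 8, had a mean above 0. Region 17 (129224888 to 129226618) averaged 0.48, with 0.51, 0.26 and 0.49 against 0.39, 0.84 and 0.39. Regions 4, 22 and 17 differed from the next in this order by less than the SD of the lower one, and single arrays ranked them differently. Their inputs were dim, at -0.76, -1.09 and -1.22. Their immunoprecipitated signals, at -0.27, -0.61 and -0.90, were also below the array median. Of their probes, 5 of 8, 4 of 8 and 3 of 9 were bright. The part of the dim input in these high ratios was not tested. After normexp the levels of regions 2, 4, 22 and 17 were 0.57, 0.39, 0.23 and 0.25. In the authors' deposited table they were 0.65, 0.45, 0.21 and 0.22. Regions 4 and 17 had 1 deep dip each, a probe at -1.35 (128776682) and a probe at -2.50 (129225952). Both dips were probes whose immunoprecipitated signal was well above background on 0 arrays. Their input was well above background on 2 and 4 of 6 arrays, so these values are at best bounds, and only on those arrays.

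Region 5 (128836669 to 128837955) was the lowest, and of the 4 lowest it had the largest share of bright probes. Its values were -1.67, -1.79 and -1.65 in the chromium-restricted arrays and -1.86, -1.47 and -1.81 in the controls, and it was the lowest of the complex on 6 of 6 arrays. The mean was -1.71, which left 2.11% of all regions below it. Its input was bright, at 0.87, higher than in 76.4% of all regions, and 4 of its 5 probes were bright. All 5 probes were below 0.

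The other 3 of the 4 lowest regions lay in the long run. Region 47 (130287151 to 130288915) had -1.31, -1.57 and -1.11 against -1.59, -1.23 and -1.30, with a mean of -1.35. Region 41 (130079565 to 130080064) had -1.41, -1.63 and -1.08 against -1.61, -1.15 and -1.15, with a mean of -1.34 from 3 probes. Region 43 (130142691 to 130144258) had -1.36, -1.25 and -0.90 against -1.27, -1.09 and -1.14, with a mean of -1.17. In these 3 regions the groups overlapped, and 1 or 2 probes of each had a mean above 0, so the low mean came from the remaining probes. Bright probes numbered 2 of 9, 1 of 3 and 2 of 7. The levels of regions 47, 41 and 43 were -0.63, -0.27 and -0.41 after normexp, and -1.56, -0.76 and -1.44 in the authors' deposited table.

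**Figure D4:**
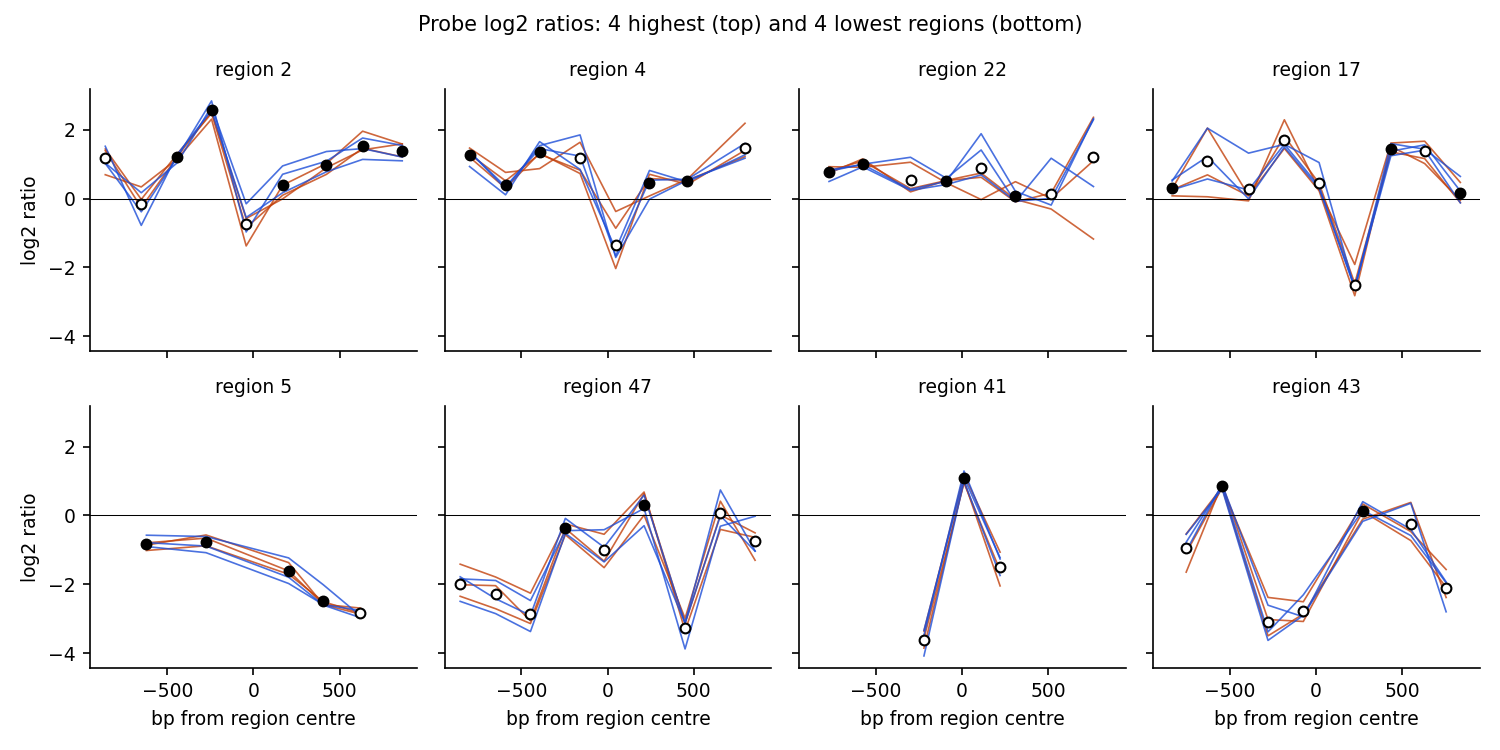
Log2 ratio of each probe (vertical axis) by its distance in bp from the centre of the region (horizontal axis), for the 4 highest regions (top row) and the 4 lowest (bottom row). Lines are single arrays, orange for chromium-restricted and blue for control; circles are means over 6 arrays, filled for bright probes. The 6 lines follow the same peaks and dips, region 17 dips to a mean of -2.50, and the 5 probes of region 5 all lie below 0.

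Probes within a region differed far more than arrays did. The range of probe means within a region had a median of 3.21 in the complex and 3.26 over the array. The second highest probe, at 129527974 in region 28, had a mean of 2.39, but its input was well above background on 1 of 6 arrays. The lowest probe, at 128962830 in region 11, had a mean of -4.12 with a bright input and an immunoprecipitated signal well above background on 0 of 6 arrays, so that value is only a bound. The next lowest, at 128611117 in region 1, was bright and had a mean of -3.88.

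Regions 36 and 37, neighbours at the start of the long run, varied most between arrays. Region 36 (129725368 to 129726107) had -0.57, -1.21 and -0.61 against -0.67, -0.93 and -0.20, an SD of 0.34. Its input, at -2.73, left 0.532% of all regions below it, and 1 of its 4 probes was bright. Its mean level was -0.70, and -1.62 in the authors' deposited table. Region 37 (129826196 to 129827070) had -0.97, -0.89 and -0.19 against -0.98, -0.46 and -0.72, an SD of 0.32. In region 36 the lowest array was chromium-restricted and the highest a control, and in region 37 chromium-restricted array 3 stood above the other 5.

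The comparison of diets asked whether the mothers' chromium restriction went with a different methylation signal in the offspring's complex. By limma with Benjamini-Hochberg adjustment over the array, 0 of the 47 regions and 0 of the 363 probes passed an adjusted p of 0.05, against a background of 0% of all regions and 0% of all probes. At an unadjusted limma p under 0.05, 1 of 47 regions was called, where 0.896% of all regions were. At the same threshold 8 of 363 probes were called, 5 of them higher after chromium restriction, where 1.30% of all probes were. The groups did not overlap in 2 of 47 regions, against 4.44% of all regions. Read against these backgrounds, none of the counts sets the complex apart.

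Differences, chromium-restricted minus control, ran from -0.24 to 0.19 over the 47 regions, with 22 above 0 and 25 below. Their median was -0.0042, against 0.0040 over all regions, and the median size without sign was 0.043, against 0.048. The 95% confidence intervals had a median half-width of 0.25, and in 43 of 47 regions they lay within 0.5 of 0 on either side. The widest bound reached 0.70 below 0, in region 36. The intervals therefore leave room for differences of either sign in all but 1 of the 47 regions.

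Averaged over all 47 regions, the chromium-restricted arrays were at -0.40, -0.53 and -0.28 and the controls at -0.52, -0.30 and -0.37. Both groups averaged -0.40 ± 0.12 (SD, n = 3 each), with a difference of -0.0078. For the long run alone the means were -0.92 ± 0.17 and -0.90 ± 0.16. The groups overlapped fully in both measures, and leaving out chromium-restricted array 2 moved the difference over the 47 regions to 0.054.

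The same-numbered arrays of the groups carried the same scan date, 1 of each group per date, and each date is called a scan here. Within scans 1, 2 and 3 the difference of the complex was 0.12, -0.23 and 0.085, and 35, 6 and 33 of the 47 regions were higher after chromium restriction. Only 6 regions kept 1 sign in all 3 scans. In each scan the array with the brighter input had the lower complex. Median input signals were 53.1, 83.8 and 46.1 units in chromium-restricted arrays 1, 2 and 3, and 98.3, 38.1 and 60.4 in the controls. The 2 brightest arrays had the lowest levels of the complex and the 2 dimmest the highest. All other regions had the same 2 arrays lowest and the same 2 highest. Their means were -0.163, -0.211 and -0.144 in chromium-restricted arrays 1, 2 and 3, and -0.224, -0.136 and -0.164 in the controls. The brighter array of each scan was the lower one there as well, so this order was not particular to the complex. The part of brightness in these differences was not tested. Each diet also had its own position on the slides, so position and diet cannot be told apart.

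Region 12 (128994619 to 128996138) had the smallest p. Its values were 0.36, 0.28 and 0.34 after chromium restriction and -0.0014, 0.22 and 0.19 in the controls, so the groups did not overlap. It differed by 0.19 with an SE of 0.084 and a 95% confidence interval of 0.00036 to 0.39 (limma, unadjusted p = 0.0497, adjusted p = 1.0). The difference was 0.36, 0.065 and 0.15 within the 3 scans, and with the scan as a block the limma interval was -0.045 to 0.43 (unadjusted p = 0.094), which takes in 0. Its input was at -1.95, and 4 of 6 probes were higher after chromium restriction. Its 2 bright probes differed by -0.18 and 0.048. The remaining probes differed by 0.80, 0.37, 0.27 and -0.14. Their immunoprecipitated signal was well above background on 0 arrays and their input on at most 2, so these sizes are not measured ones. The difference was 0.0041 in the authors' deposited table and 0.00022 after normexp correction, and it was 0.13 without control array 1.

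The next regions by p did not reach 0.05 even before adjustment. Region 22, among the highest in level, had a difference of -0.24 with an SE of 0.13 (limma, unadjusted p = 0.110), and -0.39, -0.084 and -0.24 within the 3 scans. Without chromium-restricted array 1 that difference was -0.093, and with bright probes alone it turned to 0.078. Region 25 (129456685 to 129458245) had a difference of -0.17 and an unadjusted limma p of 0.112, and the difference was -0.085 without control array 2 and turned to 0.0041 with bright probes alone. Region 3 (128738160 to 128739715) had a difference of 0.15 and an unadjusted limma p of 0.126, and the difference turned to -0.013 after normexp.

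Region 23 (129401533 to 129403155) had a difference of 0.12 with the same sign in all 3 scans (0.15, 0.12 and 0.083) and an unadjusted limma p of 0.157. When its level was taken as the median of its probes, the difference was -0.14. Region 35 (129690003 to 129691701), the first of the long run, had a difference of -0.12 and an unadjusted limma p of 0.257, and the difference was -0.034 without chromium-restricted array 3 and -0.20 without chromium-restricted array 2. Region 16 (129187570 to 129189602), named after its values were seen, was the other region without overlap. Its values were 0.18, 0.26 and 0.26 against 0.28, 0.30 and 0.29, with a difference of -0.057 and an unadjusted limma p of 0.440. It was among the steadiest regions, with an SD of 0.043 over the 6 arrays.

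The probe with the smallest unadjusted p, at 128739469 in region 3, was higher after chromium restriction by 1.24 (limma unadjusted p = 0.00253), and it did not pass adjustment. Its immunoprecipitated signal was well above background on 0 arrays and its input on 1, so the size of that difference is not a measured one. It was named after its value was seen.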

How the data were processed

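MeDIP DNA (Cy5) and input DNA (Cy3) of 6 liver samples were read on 2-colour arrays, with no dye swap. Per the file headers, the deposited intensity values came from Agilent Feature Extraction 11.0.1.1 with background subtracted and dyes normalized by a linear factor. The series table deposited by the authors is normalized, and its log base, centring and direction are not stated, and log2 was assumed for the deposited values. Against the scanner values it ran red over green, with column medians of 0.031 to 0.040 and slopes of 0.526 to 0.587. The aligner of probes to mm9 and the authors' normalization method are not given in the sources used here.

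Each array's log2 ratio of processed red over green signal was centred on its median over probes. The 5827 control spots and 360 of 174638 probes with an outlier flag, 1 of them in the complex, were left out. No loess or quantile step was applied. Regions and probes of the whole array were fitted with limma 3.58.1 in R 4.3.3 (lmFit and eBayes, group only, Benjamini-Hochberg at 0.05, 1 comparison) and tested on simulated data. Tables were read with data.table (version 1.17.8) and pandas 2.3.3, and figures drawn with matplotlib 3.10.9 in Python 3.11.15. The number of arrays limits precision.

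Named were the 6 regions with the smallest p, the 4 highest, the 4 lowest, the 2 with the largest SD, the longest run on 1 side of the array median, and the 2 highest and 2 lowest probes. The members and lists were chosen with earlier results of these data known. Alternatives changed signal, centring, probe filter, region rule, block, covariate and samples. The files hold median and no mean spot signals, so normexp (offset 50) used medians where means had been planned. The alternatives for the long run and for region levels were added after seeing the data.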

Additional observations from a re-analysis of the deposited data

How the results depend on the processing

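Under all 16 alternatives 0 regions of the complex, and under all 13 run on probes 0 probes, passed an adjusted limma p of 0.05; the lowest adjusted p of a region was 0.999. The 1 region with an unadjusted p under 0.05 became 0 after normexp, with bright probes alone, with outlier-flagged spots kept, with gaps of at most 500 bp and with the replicate block, and 2 with input signal as a covariate; leaving out 1 array gave 0 to 2, with 2 without chromium-restricted array 2, 1 without control array 2 and 0 without any other. The 2 regions without overlap became 0 after normexp, 1 in the authors' deposited table, 1 with bright probes alone and 4 with the median over probes; leaving out 1 array gave 3 to 9, since fewer arrays separate more easily. The mean difference over the complex (-0.0078) was -0.028 to -0.0020 under the other alternatives and -0.072 to 0.054 without single arrays, above 0 without chromium-restricted array 2, control array 2 or control array 3. Same-numbered arrays shared a scan date. The deviations of each such pair from their group means correlated at 0.145, -0.591 and 0.197, so the pairs did not all deviate together. With the replicate block 0 regions passed adjustment, 5 probes had an unadjusted p under 0.05 in place of 8, and not every array correlated best with its own number.

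The level gap of the complex from other regions (-0.23) was -0.40 in the authors' deposited table and -0.27 to -0.19 otherwise. The gap of the long run from the rest of the complex (-0.71) was -0.32 after normexp and -0.14 with bright probes alone, and -0.76 with the median over probes. Of 93 recomputed differences of named regions 89 kept their sign and 4 turned: region 3 to -0.013 after normexp, regions 22 and 25 to 0.078 and 0.0041 with bright probes alone, and region 23 to -0.14 with the median over probes. Of 132 recomputed levels of named regions 0 turned and 29 moved by more than their SD. The cause of these changes was not tested. Signal over background is a limit here: keeping bright probes alone left 32 of its 47 regions.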
